A study of Bos taurus with 21 samples.

Results

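A set of 40 genes of the cell cycle and of DNA replication was examined in the somatic cells of milk from 21 Holstein cows. The members were found as rows of the listed symbols in the gene count tables. Of the 40 symbols, 36 had a row, and each of these had a count in at least 1 cow, so 36 members of 12333 tested genes entered the analysis. MKI67, TOP2A, MCM2 and GINS2 were not analysed here. The cows formed a high yielding group (HY, 9 cows) and a low yielding group (LY, 12 cows), which had been coded from a production index. Each cow gave 1 milk sample and 1 RNA-seq library, no treatment was applied, and parity was 2 to 4 in both groups. The lactation period ranged from 41 to 268 days in HY (median 168) and from 52 to 270 days in LY (median 211.5). The labels also give values of milk yield, milk fat, milk protein and milk solid for each cow, without units, and the study treats milk yield as a breeding value.

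Milk somatic cells are a mixture of leukocytes and of epithelial cells shed from the udder. Neutrophils are mature cells that have left the cell cycle, whereas lymphocytes and epithelial cells can divide. Before a cell copies its DNA, the MCM helicase is loaded on replication origins with the help of CDC6 and is switched on together with CDC45. Primase (PRIM1 and PRIM2) then starts each new strand, PCNA clamps the polymerases to the DNA, and ribonucleotide reductase (RRM1 and RRM2) and thymidylate synthase (TYMS) supply the nucleotides. Cyclins E, A and B act with their kinases in order, CDK1 drives entry into mitosis, the spindle checkpoint holds the chromosomes until all are attached, and CDC20 and UBE2C direct the destruction of the cyclins. Transcripts of these genes are known to rise and fall together in dividing cells.

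Libraries held 7878557 to 25550423 counts on genes in HY and 8585010 to 28541904 in LY. Values are given as CPM (the share of a library's counts, per 1e+06) after scaling with the TMM factors of edgeR, which ranged from 0.46 to 1.48 over the cows. Because CPM is not divided by gene length, levels are compared between cows and not between genes. Markers of macrophages, neutrophils, T cells and mammary epithelium were detected in every cow. The summed level of 9 macrophage markers was between 1430 and 6950 CPM, and that of 5 erythroid markers was at most 1.61 CPM. In a library of mixed cells, fewer cells of a type and less RNA per cell cannot be told apart.

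The members were uneven over the cows in their summed level, which is scaled CPM and not a share of a library. On this scale the milk protein genes summed to 1310000 CPM in HY cow 3262. The summed level of the members was 365.9 CPM in the lowest HY cow, 638.5 in the median and 2165 in the highest. In LY it was 450.3 CPM in the lowest cow, 674.5 in the median and 1272 in the highest. The HY range thus enclosed the LY range. HY cow 3064 had the highest sum and HY cow 3280 the lowest, and in LY these were cow 3272 and cow 2893. HY cow 3064 held the highest value of 34 of the 36 members. The exceptions were CDC6, which was highest in HY cow 3014 (24.8 CPM), and NUSAP1, which was highest in HY cow 2920 (90.5 CPM). All 36 members were above their median over cows in HY cow 3064 and also in LY cow 3272. At the other end, with ties at 0 included, HY cow 3280 held the lowest value of 17 members and LY cow 2893 of 9.

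**Figure D1:**
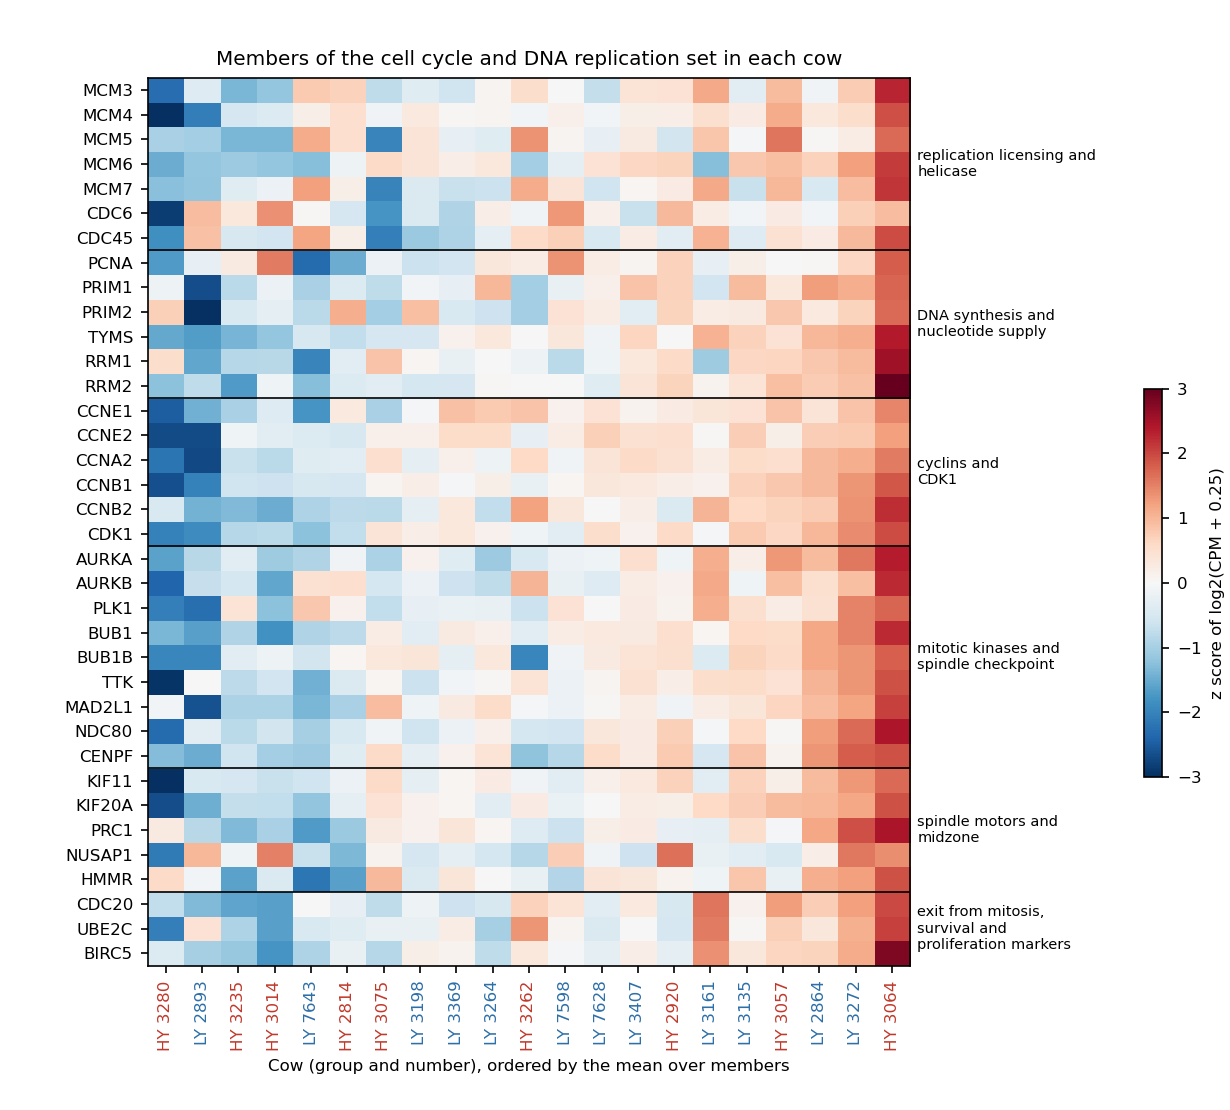
Heat map of the 36 members (rows, grouped by role) in 21 cows (columns, HY in red and LY in blue type, ordered by the mean over members). Colour is the z score of log2(CPM + 0.25) over cows, drawn up to 3 in each direction; HY cow 3064 at the right end is high in nearly all rows and HY cow 3280 at the left end is low in most.

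The gap between HY cow 3064 and the other cows differed between members. RRM2, the regulated subunit of ribonucleotide reductase, reached 228 CPM in this cow, against 72.0 CPM in the next highest cow and a median of 45.2 CPM. BUB1B, a kinase of the spindle checkpoint, reached 34.6 CPM against a median of 4.36 CPM. PCNA was at 165 CPM there against a median of 98.5 CPM. For the mitotic motor KIF11 the value was 83.7 CPM, and the next highest cow, LY cow 3272, had 52.7 CPM. Over all members the highest cow was between 1.68 (PCNA) and 7.95 (BUB1B) times the median. HY cow 3064 had a total of 17116089 counts and the highest TMM factor of all cows, 1.48. The low cow, HY 3280, had 10217225 counts and a TMM factor of 0.498. Its 10 most highly counted genes took 59.8% of all counts, compared with 9.97% in HY cow 3064.

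Low counts limited some members in the low cows. BUB1B had no count in 3 cows (LY 2893, HY 3262 and HY 3280) and CCNE2, a cyclin of the start of replication, had none in 2. CCNA2, TTK and KIF11 had no count in 1 cow each. No member lacked a count in more than 10 cows. The lowest median count over cows was 53, for BUB1B, and the highest was 1262, for PCNA. HY cow 3280 also had only 1 count each of CCNB1 and CCNA2, 3 each of CDC6 and KIF20A, and 4 of NDC80. A log2 value of a gene with few counts moves strongly with a few reads. This bears on the relations of CCNE2, BUB1B and KIF11, and also on those of CCNB1, CCNA2, CDC6, KIF20A and NDC80.

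The spread of the members over cows was wider than that of most genes. The standard deviation of log2(CPM + 0.25) over the 21 cows had a median of 0.889 over the members, with a range from 0.432 (PCNA) to 1.9 (BUB1B). Over all 12333 genes the median was 0.659, and among 8283 genes with a mean of at least 50 counts it was also 0.659.

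Levels of the replication genes were first compared between the yield groups. MCM3, a subunit of the replicative helicase, ranged from 8.25 to 84.7 CPM in HY (median 33.1) and from 18.5 to 47.5 CPM in LY (median 25.9). MCM4 ranged from 1.77 to 66.5 CPM in HY (median 15.7) and from 3.66 to 24.5 CPM in LY (median 19). MCM5 ranged from 4.67 to 43 CPM in HY (median 11.1) and from 8.36 to 30.2 CPM in LY (median 16). For these 3 subunits, and likewise for MCM6 and MCM7, the HY cows spread on both sides of the LY cows. MCM6 was between 17.7 and 105 CPM in HY (median 34.7) and between 19.8 and 68.6 CPM in LY (median 44.3). MCM7 was between 25.2 and 132 CPM in HY (median 60.2) and between 35.2 and 91.9 CPM in LY (median 47.1). The clamp gene PCNA was between 57.4 and 165 CPM in HY (median 103) and between 47.9 and 143 CPM in LY (median 97.6). PCNA varied least of all members, and its groups overlapped over nearly the whole range. PRIM2, the large subunit of primase, was between 5.95 and 17.8 CPM in HY (median 11.7) and between 2.63 and 12.9 CPM in LY (median 9.84).

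The mitotic genes showed the same overlap. CCNB1, the main B-type cyclin, ranged from 0.196 to 40.2 CPM in HY (median 4.68) and from 0.573 to 23.3 CPM in LY (median 7.25). CCNB2 ranged from 3.8 to 35.4 CPM in HY (median 7.27) and from 4.01 to 21.2 CPM in LY (median 11.1). CDK1, the kinase that these cyclins activate, ranged from 1.37 to 69.9 CPM in HY (median 9.36) and from 1.6 to 41.9 CPM in LY (median 12.6). In each of these 3 genes the LY median lay above the HY median, while the highest cow was HY cow 3064.

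**Figure D2:**
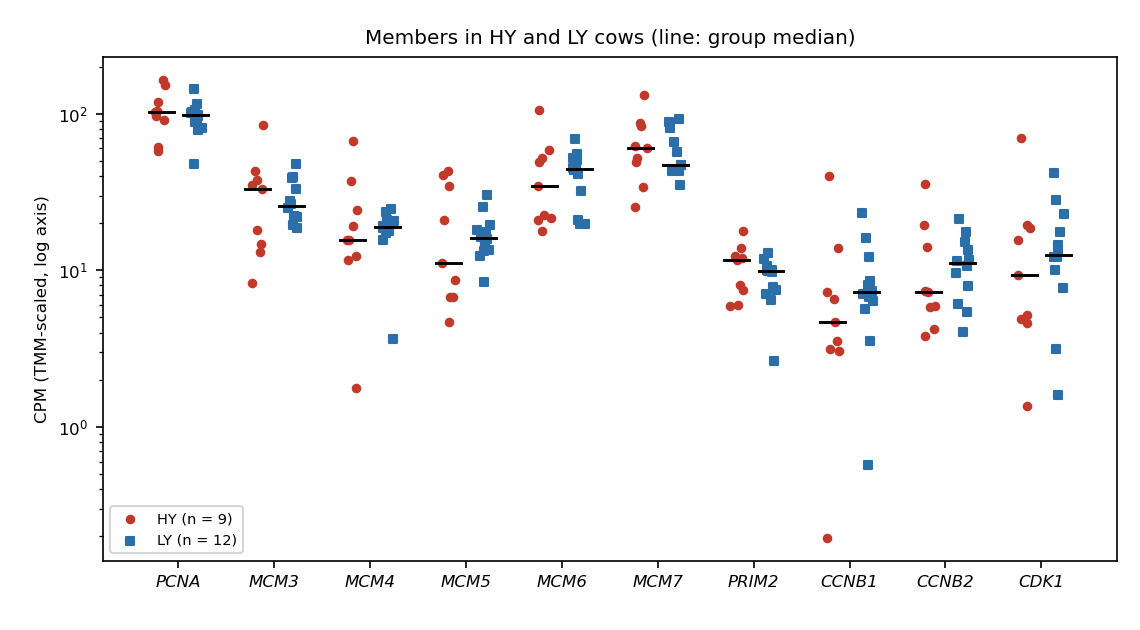
CPM (log axis) of 10 members in each HY cow (red circles, n = 9) and each LY cow (blue squares, n = 12), with the group median as a line. The groups overlap for every gene drawn, and CDK1 runs from 1.37 to 69.9 CPM within HY alone.

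A difference between HY and LY was not detected for any member. With edgeR's quasi-likelihood test, 0 of the 36 members had p under 0.05, where 4.7% of all tested genes did (1.52% higher and 3.19% lower in HY), and 0 had an adjusted p under 0.1, where 0% of all genes did. The DESeq2 Wald test also gave 0 members at both thresholds. The log2 fold change of HY over LY ranged from -0.346 (CCNE2) to 0.471 (RRM2) with a median of 0.0965, and the median over all genes was 0.0235. The lowest edgeR p belonged to RRM1, the large subunit of ribonucleotide reductase. Its level was 46.2 to 145 CPM in HY (median 74.1) and 31.7 to 85 CPM in LY (median 60.6), a log2 fold change of 0.31 with edgeR p = 0.165, adjusted p = 0.999 and an exact permutation p of 0.196 (two-sided). The log2 level of RRM1 was 6.12 ± 0.509 for HY (SD, n = 9), compared with 5.83 ± 0.449 for LY (SD, n = 12). RRM2 followed with a log2 fold change of 0.471 and edgeR p = 0.179 (adjusted p = 0.999), although its median was lower in HY (42 CPM) than in LY (45.4 CPM), and the exact permutation p on the log scale was 0.732. Leaving out HY cow 3064 gave 1 member with p under 0.05, TYMS. The mean z score over members was -0.0821 ± 0.995 for HY (SD, n = 9), compared with 0.0616 ± 0.589 for LY (SD, n = 12).

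The members rose and fell together over the cows. The median Pearson correlation of the 630 pairs of members was 0.624, with quartiles at 0.429 and 0.765, and 54.4% of pairs were above 0.6. Over all 76045278 pairs of tested genes the median was 0.0097 and 5.3% were above 0.6. Among genes with a mean of at least 50 counts, the median was 0.0045 and 9.07% were above 0.6. These correlations are descriptions over 21 cows, whose values share the total and the TMM factor of each library. A correlation below 0 was found in 12 of the 630 pairs. The highest one was 0.955, between CCNB1 and CDK1, the partners of the mitotic kinase, and it was 0.945 without HY cow 3064. The lowest was -0.175, between CDC6, which loads the helicase, and RRM1, and it was -0.376 without that cow. Without HY cow 3064 and HY cow 3280 the median over pairs was 0.528 with the scaling recomputed on the other cows and 0.526 with the scaling kept, and leaving out any 1 cow gave medians between 0.526 and 0.65.

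Pairwise correlations were also summarised by role. The 6 genes of the cyclins and CDK1 had a median pairwise correlation of 0.815. The 9 mitotic kinases and spindle checkpoint genes had 0.738, and the group of CDC20, UBE2C and the survival gene BIRC5 had 0.811. Among the 7 genes of licensing and helicase it was 0.626, among the 6 genes of DNA synthesis and nucleotide supply 0.606, and among the 5 genes of spindle motors and midzone 0.521. The order of the roles depended on HY cows 3064 and 3280: without them, and with the scaling kept, these medians were 0.729 for the cyclins and CDK1, 0.637 for the mitotic kinases, 0.826 for CDC20, UBE2C and BIRC5, 0.503 for licensing, 0.497 for DNA synthesis and 0.725 for the spindle motors. The mean over the 13 replication genes and the mean over the 17 genes of mitotic kinases, spindle and mitotic exit correlated at 0.9, and at 0.844 without HY cow 3064. TYMS followed the mean of the other members most closely (r = 0.942), then CCNB1 (0.94), KIF20A, a motor of cell division (0.937), CDK1 (0.93) and BUB1, a kinase of the spindle checkpoint (0.929). The weakest were CDC6 (r = 0.354, Spearman rho = 0.187), NUSAP1, a protein that bundles spindle microtubules (r = 0.412, rho = 0.281), CDC45 (r = 0.507), PRIM2 (r = 0.522) and PCNA (r = 0.523). The replication genes thus held both the closest and the loosest follower of the set.

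**Figure D3:**
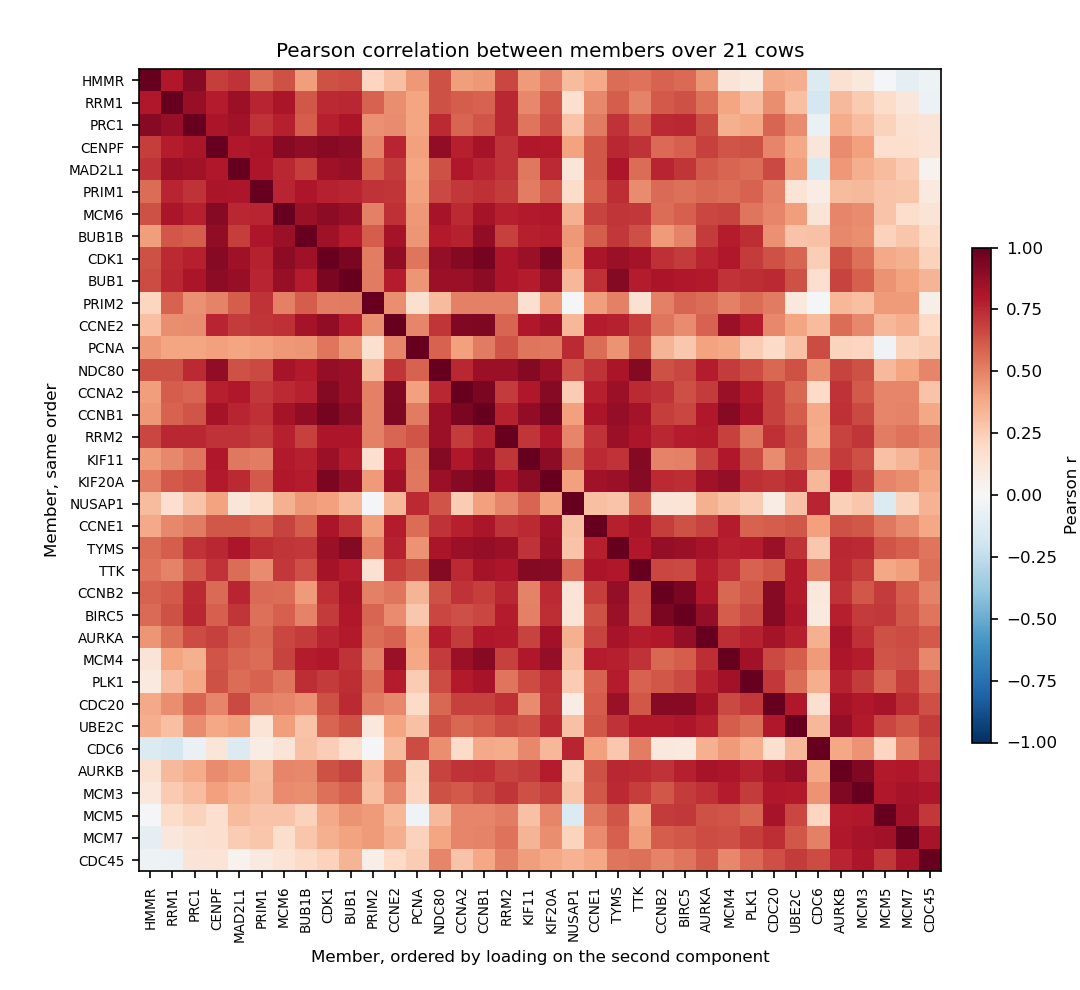
Pearson correlation between the 36 members over 21 cows (red positive, blue negative), with members ordered by their loading on the second principal component. The block of MCM3, MCM5, MCM7, CDC45 and AURKB at the lower right correlates weakly with HMMR, RRM1 and PRC1 at the upper left. NUSAP1 and CDC6 have the lowest median r with the other members (0.303 and 0.319).

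The first principal component of the 36 members held 61.5% of their variance and the second held 12.6%. All members had a positive loading on the first. The second separated CDC45 (loading 0.355), MCM7 (0.322), MCM5 (0.286), MCM3 (0.262) and AURKB (0.24), the kinase of the chromosomal passenger complex, from HMMR (-0.275), RRM1 (-0.262), PRC1 (-0.216), CENPF (-0.206) and MAD2L1 (-0.199). HMMR and PRC1 act on spindle microtubules, CENPF at the kinetochore and MAD2L1 in the spindle checkpoint. LY cow 7643 (4.26), LY cow 3161 (3.45) and HY cow 3262 (2.91) had the highest scores on it, and HY cow 3075 (-3.98) and HY cow 3280 (-3.16) the lowest. The high end held cows of both groups, and the 2 lowest cows were HY cows.

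Genes outside all lists that followed the mean over members most closely were ranked among 12130 genes over the 21 cows. The first was IQGAP3 (r = 0.912), followed by KIAA0101, which encodes a partner of PCNA (0.911), PRR11 (0.905), FAM72A (0.897), CENPW, a centromere protein (0.892), and ERCC6L (0.886). SCN8A (0.875), CCNF, an F-box protein of the cyclin family (0.868), MMS22L (0.864) and FKBP9 (0.859) completed the 10. Their correlations without HY cow 3064 were between 0.821 and 0.919.

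The mean over members also moved with properties of the libraries. Its correlation was 0.717 with the TMM factor, 0.63 with the number of genes with a count, 0.307 with the log2 total count and -0.424 with the share of the 10 most highly counted genes. For single members the median correlation with the TMM factor was 0.565 and that with the number of detected genes 0.482, against 0.111 and 0.158 over all genes. The part of these properties in the results was not tested. The median pairwise correlation was 0.616 with DESeq2 size factors and also 0.616 when caseins and whey protein genes were left out of the scaling.

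The relation of the members to T cells was examined with the summed level of 16 T cell markers, which ranged from 103 to 1010 CPM in HY and from 98.6 to 1780 CPM in LY. All 36 members had a positive correlation with this level over the 21 cows, with a median of 0.394 against 0.0706 over all genes, of which 57.7% were positive. In the regressions 14 members had p under 0.05, compared with 17.4% of all tested genes, or 10.5% with a positive slope. After adjustment over 12317 genes, 0 members were under 0.1, while 3.99% of all genes were (2.98% positive and 1.01% negative). The edgeR test gave 14 members with p under 0.05 and 1, NDC80, after adjustment. Shares over all genes were not counted for edgeR or with cows left out. The count depended on single cows: it was 3 without HY cow 3280, 7 without HY cow 3064, 8 without LY cow 3272 and 23 without LY cow 7643. Adjusted calls appeared without LY cow 7643 (7 members), LY cow 3198 (2), HY cow 3014 (1) or HY cow 3057 (1). Without HY cows 3064 and 3280 together, 1 member remained under 0.05, PRIM1. With parity and lactation period as covariates there were 3, KIF11, MCM3 and TYMS.

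MCM3 had the lowest p of the members, with r = 0.568 (permutation p = 0.00708), rho = 0.544 (permutation p = 0.0118) and adjusted regression p = 0.134. Its r was 0.4 without the 2 cows farthest from its median and 0.518 in the 16 cows of the lower mapping rate set. NDC80, a kinetochore protein, had r = 0.53 (permutation p = 0.0131, adjusted regression p = 0.175) and TYMS had r = 0.526 (permutation p = 0.0143, adjusted regression p = 0.178). KIF11 followed at r = 0.511 (permutation p = 0.0148, adjusted regression p = 0.192), but its rho was 0.397 (permutation p = 0.0755). For PLK1, a kinase of mitotic entry, r was 0.505 (permutation p = 0.0189, adjusted regression p = 0.2). Without the 2 cows farthest from each gene's median, r fell to 0.336 for NDC80, 0.448 for TYMS, 0.253 for KIF11 and 0.307 for PLK1, so each of these relations rested in part on those cows. The lowest correlations with the T cell level were those of PRIM2 (r = 0.0703), RRM1 (0.0771) and HMMR (0.0799). The cow with the highest T cell level, LY 3264, had a mean over members of -0.0563, and LY cow 7643, with 1380 CPM of T cell markers, had -0.652. HY cow 3064 combined 987 CPM of T cell markers with the highest mean, 1.99. The mean over members correlated with the T cell level at 0.465 (rho = 0.431) over all cows, at 0.671 within HY and at 0.222 within LY, and the difference between groups was not tested. Without HY cows 3064 and 3280 the value over all cows was 0.288. Positive correlations were not particular to the T cell level. The median r of the members was 0.267 with the B cell level and 0.232 with the macrophage level (30 of 36 positive for each). Over all genes these medians were 0.0668 and 0.0701. With the neutrophil level the members had a median of -0.146 (9 of 36 positive). The mean over members correlated with the B cell level at 0.29 (rho = 0.474).

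The relation to epithelial cells was examined with 16 mammary epithelial markers, among which the keratin KRT19 took 41.9% of the sum. Their level ranged from 41.4 to 4530 CPM in HY and from 186 to 2300 CPM in LY. Members tended to be lower in epithelium-rich libraries: 33 of 36 correlations were negative, with a median of -0.298. Over all genes the median was -0.106 and 40.8% were positive, so most genes also went down. With p under 0.05 there were 8 members, all with a negative slope, whereas 35% of all genes passed and 20% did so with a negative slope. After adjustment 5 members stayed under 0.1, against 30% of all genes and 16.7% with a negative slope. Both member shares (22.2% and 13.9%) were thus near or below the background, so the count is not a result about the members. The 5 were PLK1 (r = -0.613, permutation p = 0.00316, adjusted regression p = 0.0198), MCM4 (r = -0.574, permutation p = 0.00534, adjusted 0.0334), BUB1B (r = -0.574, permutation p = 0.00653, adjusted 0.0334), AURKA (r = -0.501, permutation p = 0.0204, adjusted 0.0777) and AURKB (r = -0.485, permutation p = 0.0252, adjusted 0.09). Their rho values were between -0.614 (MCM4) and -0.471 (BUB1B). Without the 2 cows farthest from each gene's median, r was -0.451 for PLK1, -0.344 for MCM4, -0.431 for BUB1B, -0.447 for AURKA and -0.293 for AURKB. Leaving out HY cow 3280, which had the highest epithelial level, 4530 CPM, left 1 adjusted call, PRIM2, and 3 members with p under 0.05. The adjusted count was 3 without LY cow 2893, HY cow 3057, HY cow 3064 or LY cow 3272, and 9 without HY cow 2814 or HY cow 3235. At p under 0.05, 5 members were counted without HY cow 3064 and 14 without HY cow 3235. HMMR went the other way, with r = 0.258.

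**Figure D4:**
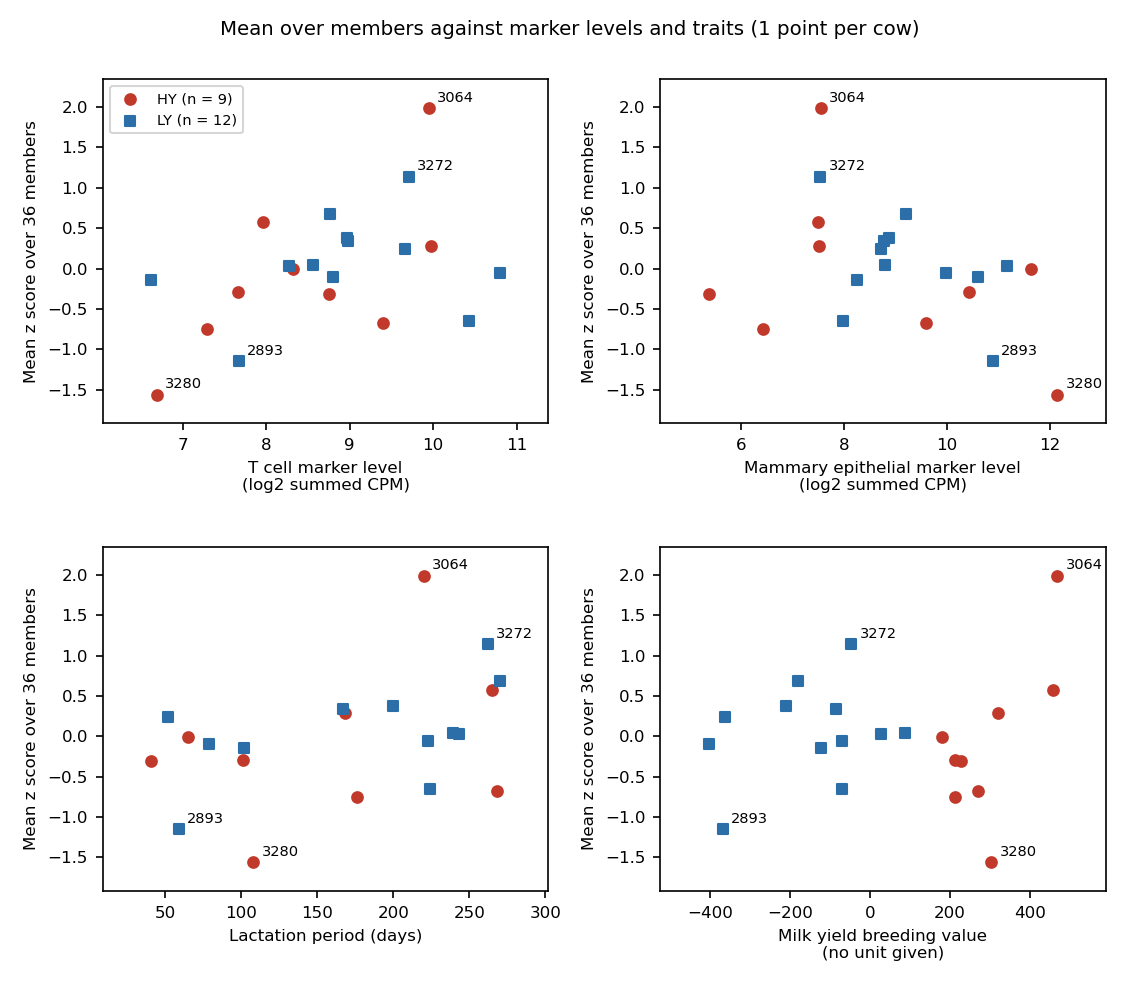
Mean z score over the 36 members (vertical axis) against the T cell marker level, the mammary epithelial marker level (both log2 summed CPM), the lactation period (days) and the milk yield breeding value (no unit given), 1 point per cow (HY red circles, LY blue squares). HY cow 3064 and HY cow 3280 lie at the ends of the mean, and between them the points scatter widely in all 4 panels.

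The other marker lists gave 4 to 7 members each at p under 0.05. With both signs together, their shares (11.1% to 19.4% of the members) were below the background of each list (13.7% to 32.3%). These counts are thus not a result about the members. By sign, the B cell positive share (11.1% against 8.24%) and the neutrophil negative share (11.1% against 8.15%) were above it. After adjustment the macrophage (13.9% against 27.2%), cytotoxic lymphocyte (11.1% against 19.7%) and milk protein (5.56% against 27%) shares were below it. The adjusted neutrophil share was above it (11.1% against 8.19%, and 8.33% against 2.65% for negative slopes). With the macrophage level, 6 members had a positive and 1 a negative slope at p under 0.05 (background 18.1% and 14.2% of all genes, 32.3% together). MCM4 (r = 0.602, permutation p = 0.0041), AURKB (0.52, permutation p = 0.0155), PLK1 (0.496, permutation p = 0.0221), MCM7 (0.491, permutation p = 0.0233) and MCM5 (0.461, permutation p = 0.0362) were positive, and HMMR was negative (-0.493, permutation p = 0.0238). The adjusted regression p of the other 4 positive members named was between 0.0664 and 0.122, and that of HMMR was 0.0891. MCM4 had an adjusted regression p of 0.0242, but its r was 0.23 without the 2 cows farthest from its median, and that of PLK1 was 0.157, so both rested on those cows. The cytotoxic lymphocyte level gave 5 positive members and 1 negative (background 16.6% and 11.7%, 28.3% together). MCM5 (r = 0.586, permutation p = 0.0054), MCM3 (0.579, permutation p = 0.00561) and MCM7 (0.535, permutation p = 0.0122) led, with values of 0.618, 0.645 and 0.601 without the farthest cows, and HMMR was again negative (-0.468, permutation p = 0.0308). The adjusted regression p was 0.0471 for MCM5, 0.0505 for MCM3, 0.0773 for MCM7 and 0.135 for HMMR.

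With the neutrophil level, CDC6 was positive and 4 members were negative at p under 0.05 (background 10.4% and 8.15%, 18.5% together). CDC6 had r = 0.679 (permutation p = 0.00051), rho = 0.643 (permutation p = 0.00199) and adjusted regression p = 0.025, and r was 0.508 without the farthest cows, 0.714 in the 16 cows of the lower mapping rate set, 0.665 within HY and 0.731 within LY. RRM1 (r = -0.656, permutation p = 0.00115), PRC1 (-0.622, permutation p = 0.00262), HMMR (-0.567, permutation p = 0.00694) and MAD2L1 (-0.54, permutation p = 0.0116) were negative, with adjusted regression p from 0.035 to 0.121. CDC6 was also the member with the lowest correlation to the rest. The level of the milk protein genes gave 1 positive and 3 negative members (background 13.9% and 18.4%, 32.3% together), HMMR (r = 0.523, permutation p = 0.0147), PLK1 (-0.529, permutation p = 0.0127), MCM4 (-0.434, permutation p = 0.0457) and MCM7 (-0.433, permutation p = 0.0495), with adjusted regression p from 0.0622 to 0.154. The B cell level gave 4 positive members, MCM3, CDC45, AURKB and MCM4 (background 8.24%, 13.7% with both signs), with r from 0.441 to 0.547 and adjusted regression p of 0.288 or more.

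The lactation period was examined next. All 36 members had a positive correlation with days in milk, with r from 0.018 (UBE2C) to 0.522 (BUB1B) and a median of 0.333. Over all genes the median was 0.0668, and 56.3% were positive. In the regressions 8 members (22.2%) had p under 0.05, each with a positive slope, against 20.3% of all genes and 10.5% with a positive slope. With both signs together the member share was thus near the background, so that count is not a result about the members. For positive slopes alone it was above the background. After adjustment 0 members and 0% of all genes passed, and the lowest adjusted p of a member was 0.159. The edgeR test gave 12 members with p under 0.05 and 0 after adjustment. The 8 members came from every role except that of CDC20, UBE2C and BIRC5, which gave 0 of 3. They were BUB1B and PLK1 of mitosis, the cyclins CCNB1 and CCNE2, CDC6 of licensing, PRIM1 and PCNA of synthesis, and NUSAP1 of the spindle.

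The fitted slope of BUB1B was 1.22 ± 0.457 (SE) log2 units per 100 days (r = 0.522, permutation p = 0.0147, rho = 0.399 with permutation p = 0.0743). That of CDC6 was 0.738 ± 0.282 (r = 0.515, permutation p = 0.0145, rho = 0.542 with permutation p = 0.0133). PRIM1, the catalytic subunit of primase, had a slope of 0.61 ± 0.25 (r = 0.488, permutation p = 0.0235), and CCNB1 had 0.856 ± 0.357 (r = 0.481, permutation p = 0.0244). For PLK1 the slope was 0.412 ± 0.185 (r = 0.454, permutation p = 0.0386). None of these passed the adjustment over all genes (adjusted regression p from 0.159 to 0.22). Without the 2 cows farthest from each gene's median, r was 0.349 for BUB1B, 0.533 for CDC6, 0.38 for PRIM1, 0.38 for CCNB1 and 0.311 for PLK1. In the 16 cows of the lower mapping rate set these r were 0.584, 0.499, 0.636, 0.513 and 0.436. The number of members with p under 0.05 was 3 without LY cow 3272, 4 without LY cow 2893 or HY cow 3064, 5 without HY cow 3280 and 13 without HY cow 3014. BUB1B and PRIM1 passed the adjustment when LY cow 3407 was left out. Without that cow, 4 positive and 3 negative adjusted calls also appeared among 92 other cell cycle genes. The share of all genes passing was not counted there. The mean over members correlated with the lactation period at 0.407 (rho = 0.397), at 0.346 within HY and at 0.497 within LY, and at 0.414 without HY cows 3064 and 3280. A difference in slope between HY and LY was not detected: 0 members had p under 0.05 for the interaction (edgeR), where 2.61% of all genes did, and 0 passed the adjustment. Leaving out HY cow 3057 or LY cow 3272 gave 1 member with p under 0.05.

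Relations with the milk traits were weak. For milk yield, 1 member had p under 0.05 (2.49% of all genes, 0.859% positive and 1.63% negative) and 0 passed the adjustment (0% of all genes). This was PRIM2, with r = 0.483 (permutation p = 0.0233), rho = 0.453 (permutation p = 0.0398) and adjusted regression p of 1. The r of PRIM2 was 0.761 within HY, 0.522 within LY and 0.483 in the 16 cows, but it was 0.205 without the 2 cows farthest from its median, HY cow 3064 (17.8 CPM) and LY cow 2893 (2.63 CPM), so the relation rested on those cows. The call was lost when either of them was left out, and 2 members, PRIM2 and MCM4, were counted without HY cow 3280. RRM1 was next, with r = 0.365 (permutation p = 0.106). Huber's robust regression also gave PRIM2 alone, and edgeR gave RRM2 in its place. The median r of the members was 0.0769 against -0.00176 over all genes. The mean over members correlated with milk yield at 0.124 over all cows, at 0.662 within HY and at 0.268 within LY. The 21-cow value turned to -0.129 without HY cow 3064, the cow with the highest milk yield, 468.053.

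For milk solid, RRM1 had p under 0.05 (r = 0.452, permutation p = 0.0396, rho = 0.368 with permutation p = 0.103, adjusted regression p of 1), against 1.65% of all genes (0.405% positive and 1.25% negative). Its r was 0.292 without the farthest cows and 0.284 without HY cow 3064. PRIM2 followed at r = 0.423 (permutation p = 0.054). Milk fat and milk protein gave 0 members each at p under 0.05, against 2.3% of all genes in both (0.851% positive and 1.45% negative for milk fat, 0.576% and 1.73% for milk protein), and edgeR gave 0 and 1 (RRM2). The lowest p were those of TYMS (r = -0.287, permutation p = 0.207) and CCNB2 (-0.22, permutation p = 0.335) for milk fat, and of PRIM2 (0.4, permutation p = 0.071) and RRM1 (0.325, permutation p = 0.153) for milk protein. After adjustment 0 members and 0% of all genes passed for any of these traits. The count was 1 for milk fat without HY cow 3064 (TYMS) and 1 for milk protein without HY cow 3262 (PRIM2). For milk solid it was 0 without LY cow 2893, LY cow 3161, HY cow 2920, HY cow 3057 or HY cow 3064, and 2 without HY cow 2814, HY cow 3235, HY cow 3262, HY cow 3280, LY cow 2864 or LY cow 3198.

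**Figure D5:**
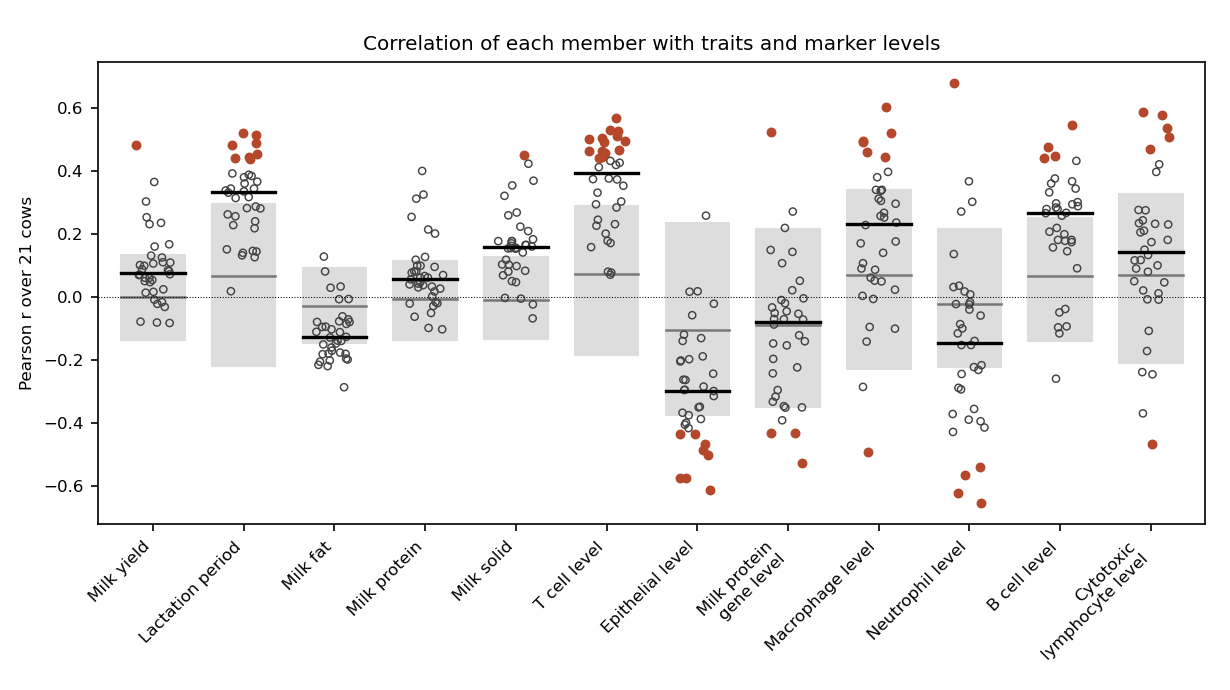
Pearson correlation over 21 cows of each of the 36 members with the milk traits, the lactation period and the marker levels (filled red, regression p under 0.05; open, other members; black line, median of the members; grey box and line, quartiles and median of all genes with a count). The median of the members lies above the grey median for the lactation period (0.333 against 0.0668) and the T cell level (0.394 against 0.0706). It is also above for the B cell level (0.267 against 0.0668), the macrophage level (0.232 against 0.0701) and milk solid (0.158 against -0.011). It lies below the grey median for the epithelial level (-0.298 against -0.106), the neutrophil level (-0.146 against -0.0214) and milk fat (-0.128 against -0.0275). Single members lie on the other side.

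Other cell cycle genes were counted from 4 lists, of which 92 of 106 symbols were tested. For the T cell level, 28 had a positive and 1 a negative slope at p under 0.05 (background 10.5% and 6.88%), and 4 passed the adjustment, all positive (background 2.98%). Without HY cows 3064 and 3280 these numbers were 10, 1 and 2. The positive count at p under 0.05 was 13 without HY cow 3280, 18 without HY cow 3064 and 44 without LY cow 7643. The adjusted count was 2 without HY cow 3280, 11 without LY cow 3198 and 16 without LY cow 7643. Parity and lactation period as covariates gave 15 positive genes (2 adjusted), the 16 cows of the lower mapping rate set 21 (1 adjusted), edgeR 33 (8 adjusted) and mean z scores of the markers 35 (17 adjusted). CDC25B, a phosphatase that activates CDK1, had r = 0.859 (permutation p = 1e-05, the smallest these permutations can give, rho = 0.842, adjusted regression p = 0.000279) and kept 0.842 without the farthest cows. RBL2, a relative of the retinoblastoma protein that represses cell cycle genes in resting cells, had r = 0.731 (permutation p = 0.00019, adjusted regression p = 0.0154). CHAF1B of chromatin assembly had r = 0.666 (permutation p = 0.00056, adjusted regression p = 0.0478) and SMC4 of condensin had r = 0.619 (permutation p = 0.00305, adjusted regression p = 0.0839). Next in their lists were TPX2 (r = 0.573, permutation p = 0.00618), CDC7 (0.595, permutation p = 0.00491), ORC1 (0.566, permutation p = 0.00684), CCND2 (0.582, permutation p = 0.00522) and E2F8 (0.525, permutation p = 0.0143), with adjusted regression p from 0.107 to 0.18.

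For the lactation period, 14 of the 92 genes had a positive and 3 a negative slope at p under 0.05 (background 10.5% and 9.88%), and 0 passed the adjustment. With both signs together the count was not above the background (20.3% of all genes), so that count is not a result about these genes. By sign, the positive share was above its background and the negative share was below. The positive count was 7 without LY cow 3272, 9 without LY cow 2893, 25 without LY cow 7643, 26 without LY cow 3407 and 29 without HY cow 3014. Adjusted calls appeared without LY cow 3407 (4 positive and 3 negative) and without HY cow 2814 or HY cow 3057 (1 positive and 2 negative each), and edgeR gave 2 negative ones. E2F3, an activator of replication genes, had r = 0.616 (permutation p = 0.00144), and RBL2 (0.512, permutation p = 0.0189) and CDK2 (0.476, permutation p = 0.00942) followed in its list. ECT2 (0.527, permutation p = 0.0146), KIF15 (0.497, permutation p = 0.0167) and MCM8 (0.456, permutation p = 0.0373) were also positive. ZWINT (-0.61, permutation p = 0.00277), GINS3 (-0.597, permutation p = 0.00304) and POLD2 (-0.51, permutation p = 0.0181) were negative, and the adjusted regression p of these 9 genes was between 0.126 and 0.217. For the epithelial level, 11 of the 92 were positive and 23 negative at p under 0.05 (background 15% and 20%). After adjustment there were 11 and 21 (background 13.3% and 16.7%). With both signs together these counts were near the background (35% and 30% of all genes), so they are not a result about these genes. POLD2, a subunit of DNA polymerase delta, was positive (r = 0.741, permutation p = 0.00012, adjusted regression p = 0.00183), as were CKS1B (0.666, permutation p = 0.00105) and NCAPG (0.633, permutation p = 0.00217). CHAF1B (-0.694, permutation p = 0.0002), CHAF1A (-0.681, permutation p = 0.00059), ESPL1 (-0.618, permutation p = 0.00225), E2F3 (-0.6, permutation p = 0.00365), CDK2 (-0.598, permutation p = 0.00186) and CCND2 (-0.594, permutation p = 0.00443) were negative, with adjusted regression p of 0.026 or less. Without HY cows 3064 and 3280 the counts were 11 and 12 at p under 0.05, and 8 and 5 after adjustment. The negative count was 13 without HY cow 3280 alone (7 adjusted), and 13 negative genes were adjusted calls without LY cow 2893. After adjustment the 16 cows of the lower mapping rate set gave 6 positive and 8 negative genes, and mean z scores of the markers gave 3 and 12. For milk yield, where 2.49% of all genes had p under 0.05, POLE of DNA polymerase epsilon alone of the 92 did (r = 0.435, permutation p = 0.0456, and 0.101 without the farthest cows). That count was 0 without HY cow 2814, 3057, 3064 or 3075 or without LY cow 2893, 3198, 7598 or 7628, 2 without HY cow 3280 or LY cow 7643, and 3 in the 16 cows of the lower mapping rate set. HY against LY, milk fat, milk protein and milk solid gave 0 of the 92 at p under 0.05 (background 4.7%, 2.3%, 2.3% and 1.65%). The DESeq2 Wald test gave 1 for HY against LY, edgeR gave 1 each for milk protein and milk solid, and leaving out 1 cow gave at most 3 (HY against LY without HY cow 3064, and milk fat without HY cow 2920). Inhibitors of cyclin-dependent kinases gave 0 of 6 at p under 0.05 for the T cell level, the epithelial level and the lactation period. The background was 17.4%, 35% and 20.3% of all genes, and 6 genes are too few to set against it. For the neutrophil level 2 of the 6 were adjusted calls, both positive (background 5.55%).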

How the data were processed

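RNA-seq of milk somatic cells was deposited for 21 cows. The submitters' processing notes name Trimmomatic, TopHat2, Bowtie2, SAMtools and HTSeq. Per the study's methods, trimmed read pairs were mapped to the UCSC cattle genome and counted per annotated gene, and the authors deposited these raw counts without normalization. The strand setting and gene lengths are not given in the sources used here. Of 13570 gene rows, the 12333 with any count were tested. The 5 counter rows and 1 row named null (4468 to 37084 counts) were left out. Each cow gave 1 library, and p-values measure the spread between cows.

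Counts were scaled with TMM and transformed as log2(CPM + 0.25). HY and LY were compared with edgeR 4.0.16 (quasi-likelihood), and the interaction of lactation period and yield group likewise. Traits and log2 summed marker CPM were tested by simple linear regression, and Benjamini-Hochberg adjustment covered all genes other than the markers of the list tested. Permutation p-values used 100000 permutations of cows (two-sided), and the exact test all 293930 splits. Scripts were tested on simulated data. DESeq2 1.42.0 served as an alternative. Calls were read at an adjusted p under 0.1 and at p under 0.05, the thresholds of the study. The lower mapping rate set holds 16 cows, 8 HY and 8 LY, and the other 5 cows were too few for values of their own. Named genes were the members of lowest p in each direction (5 at most), the members shown by group, up to 3 genes per other cell cycle list and comparison, and the 10 genes most like the member mean. The members and lists were chosen with earlier results of these data known. Depth limits low counts in single cows, and intervals were not computed for them.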

Additional observations from a re-analysis of the deposited data

Results flagged for a closer look

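In the HY group of 9 cows, 5 of 37 series of values (36 members and their mean) had an end cow whose gap to its neighbour, divided by the whole range, was above Dixon's critical value for 9 samples. Chance flags about 1 in 20 such groups, and the members are correlated. HY cow 3280 was the low end for MCM4 (ratio 0.507), CCNE2 (0.561) and KIF11 (0.532), and KIF11 and CCNE2 had no count there. HY cow 3064 was the high end for TYMS (0.499) and PRC1 (0.578).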

How the results depend on the processing

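No paired analysis was possible because the replicate numbers only name cows in order and link no HY cow to an LY cow. On recomputing, 585 values stayed within 1.5 times the reported count or within the jackknife error of the reported correlation, and 67 did not. A count of 0 in both settings was taken as unchanged. The jackknife error is several times the spread of the correlations with 1 cow left out, from which it was computed. This tally is therefore not a measure of stability. A setting chosen after seeing the data left out HY cows 3064 and 3280: milk yield gave 0 members with p under 0.05, lactation period 4, milk solid 0, T cell level 1, epithelial level 2, and 1 with adjusted p under 0.1 for the epithelial level. In the 16 cows of the lower mapping rate set the counts at p under 0.05 were 0 for milk yield, 5 for lactation period and 4 for the epithelial level (1 adjusted). With parity and lactation period as covariates they were 0 for milk yield, 0 for milk solid, 3 for the T cell level and 5 for the epithelial level (3 adjusted). With edgeR they were 1 for milk protein and 2 for milk solid, and the adjusted counts were 1 for the T cell and 8 for the epithelial level. DESeq2 size factors gave 2 for milk solid and 5 for the epithelial level, and scaling without milk protein genes gave 2 for milk solid. Mean z scores of the markers gave 7 adjusted calls for the T cell level and 3 for the epithelial level. The share of all genes called was not counted in these settings or with 1 cow left out. Their counts therefore have no background beside them. The cause of the changes was not tested.

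With each cow left out in turn, members with p under 0.05 numbered 0 to 1 for HY against LY, 0 to 2 for milk yield, 3 to 13 for lactation period, 0 to 1 for milk fat, 0 to 1 for milk protein, 0 to 2 for milk solid, 3 to 23 for the T cell level, 3 to 14 for the epithelial level and 0 to 1 for the interaction. Adjusted counts were 0 to 2 for lactation period, 0 to 7 for the T cell level and 1 to 9 for the epithelial level. The mean over members correlated with the T cell level at 0.341 to 0.597, with the epithelial level at -0.488 to -0.188, with lactation period at 0.35 to 0.506 and with milk yield at -0.129 to 0.258. Members with a few counts in single cows limit what the low end can show.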
